A study of Mus musculus with 6 samples.

Results

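Among the genes listed as different between acetylcholine-treated and control KYSE30 cells, 179 of 4195 encode annotated transcription factors outside the C2H2 zinc finger class. They were chosen by the family annotation of the deposited table. Every listed gene with a family label was taken, except the C2H2 finger genes and 6 listed genes of the AP-1, TP63 and SOX2 set. The 179 genes carry 44 family labels and are all annotated as protein-coding. A few labels stretch the term. CERS6, labelled as a homeobox gene, encodes a ceramide synthase, and PMS1, labelled as an HMG gene, encodes a DNA mismatch repair protein.

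KYSE30 cells are a human line established from a squamous cell carcinoma of the esophagus. The ACh group was given 100 uM acetylcholine, the transmitter of cholinergic nerves, for 4 h, and has 3 libraries. The Control group has 3 libraries of the same time point. Both groups are labelled as wild type and were made from total RNA with a SMARTer kit. Nothing in the labels says that the 3 libraries of a group came from separate cultures, so p-values measure the spread between libraries, which may be technical. As cells of a single line, they cannot show how other esophageal tumors respond.

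Transcription factors of these classes bind DNA through many kinds of fold. Basic helix-loop-helix (bHLH) and leucine zipper proteins bind as dimers, so the choice of partner decides which sites are bound and whether a gene is activated or repressed. Nuclear receptors carry a ligand pocket and exchange corepressors for coactivators when the ligand binds, while E2F, NF-kB, SMAD, STAT and Hippo-pathway factors are held in check by binding partners or by their place in the cell. In squamous epithelium, GATA3, grainyhead-like, AP-2, C/EBP, SOX and ETS factors take part in the balance between growth and differentiation.

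The values are normalised counts, that is, read counts that the authors scaled per library. The sum over all listed genes was 10519515 to 10681118 in the ACh libraries and 11097307 to 11468978 in the Control libraries. Transcription factors outside the C2H2 class took 2.93 to 3.01% of that sum in ACh and 2.94 to 2.99% in Control. The total depth is unknown. Their mean levels ran between 1.95 and 28738 normalised counts, with a median of 1022. Of the 12 squamous epithelial markers checked, 4 are listed (ITGB4, DSC3, KRT15 and DSG3). Their summed level was 39880 to 40385 normalised counts in ACh and 41403 to 43653 in Control, and 1 of the 4 rose and 2 fell. Of the markers of other cell types, only COL1A1 of 6 fibroblast genes, LAPTM5 of 7 leukocyte genes and EGFL7 of 5 endothelial genes are listed. COL1A1 lay at 133 to 147 in ACh and 146 to 193 in Control, LAPTM5 at 31.1 to 48.2 in ACh and 17.7 to 21.3 in Control, and EGFL7 at 818 to 970 in ACh and 1052 to 1081 in Control. EGFL7 fell and the other two did not pass. The part of these genes in the results was not tested.

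Of the 179 factors, 55 rose with ACh (30.7%) and 62 fell (34.6%). Over all listed genes, 28.8% rose and 35.0% fell, so the factors moved about as often as the other listed genes. A gene is said to have risen or fallen when limma's adjusted p and that of the authors' deposited table were both under 0.05, and 117 factors did (65.4%, against 63.8% of all listed genes). Because the table lists only genes with an unadjusted p under 0.05, limma passed all 179, and the calls are in effect those of the authors' deposited adjusted p-value. Limma's adjusted p-values, here and below, were computed over these selected genes and do not bound the share of false calls. In 166 of 179 the 3 ACh values lay all above or all below the 3 Control values, against 93.0% of all listed genes. The changes were small: the median size among the 117 was 1.18-fold and the largest was 1.42-fold. The median log2 fold change, ACh minus Control, was -0.10 for the factors and -0.10 for all listed genes. In bulk RNA, fewer cells of a type and less RNA per cell cannot be told apart.

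By annotated family, the 17 bHLH genes had 4 rises and 10 falls, the 14 HMG genes 6 and 6, the 12 ZBTB genes 5 and 2, the 10 homeobox genes 4 and 3, and the 10 TF_bZIP (leucine zipper) genes 4 and 4. The 8 ETS genes had 3 rises and 2 falls, the 8 MYB genes 2 and 2, and the 22 genes annotated as Others 7 and 7. All 3 C/EBP genes fell, one of which, CEBPB, changed sign with the GC trend removed. Of the 6 forkhead genes, FOXN2 rose, and none of the 3 RFX genes passed. The 89 listed C2H2 genes had 31 rises and 21 falls. The difference between the classes was not tested.

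**Figure D1:**
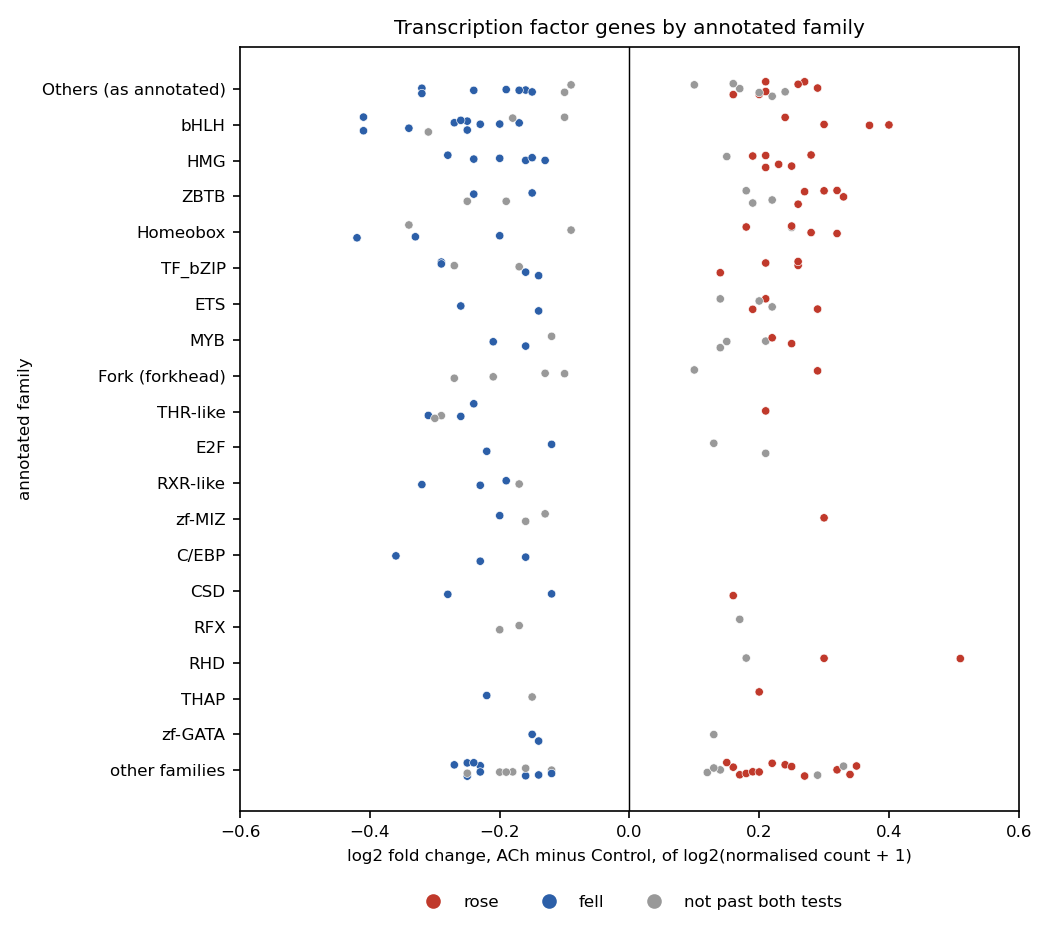
Log2 fold change (ACh minus Control, of log2 normalised count + 1) of each factor, by annotated family. Families with under 3 genes share the bottom row, and 4 genes with a library under 20 normalised counts are not shown. Points on both sides of 0 fill most families, the 3 C/EBP genes lie at or below -0.16 (CEBPB changed sign with the GC trend removed), and in all 43 of the called genes changed sign then.

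The direction of change followed the base composition of the transcripts. GC content, taken from the mouse transcript of the same symbol because no human sequence was used here, was found for 175 of 179 factors. Of the 82 factors with GC below 50%, 52 rose and 3 fell (ID4, NR2F2 and GATA3). Of the 93 at or above 50%, 3 rose (MXD1, ZFHX3 and AFF1) and 57 fell. At 60% and above, none of 27 rose and 21 fell. Across the 175 factors, Spearman's rho between log2 fold change and GC was -0.78, and across 3676 listed genes it was -0.76. The genes share the 6 libraries and are not independent replicates. Chromosome followed the same line: on chromosome 19, known as gene-rich and GC-rich, 17 of 19 factors fell and none rose, and on chromosome 20, 6 of 9 fell and none rose, while 9 of 15 on chromosome 2 and 4 of 5 on chromosome 3 rose. These chromosomes are examples, and the shares over all listed genes on each of them are not given. Of all listed genes on any chromosome, 35.0% fell and 28.8% rose. What makes change and GC move together was not tested.

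**Figure D2:**
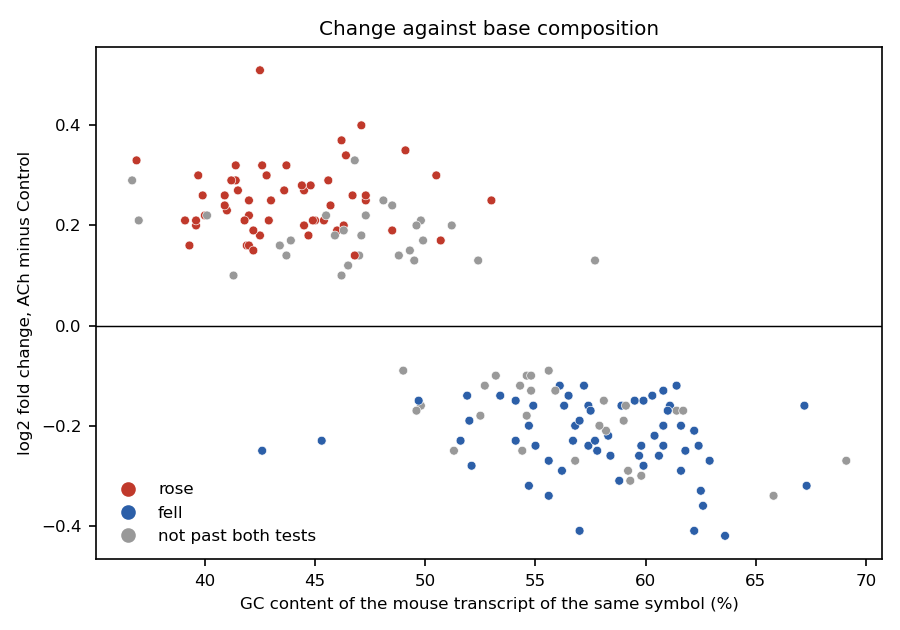
Log2 fold change (ACh minus Control) against the GC content of the mouse transcript of the same symbol, in percent, for 171 factors with a GC value and no library under 20 normalised counts. Rises lie on the left and falls on the right, and Spearman's rho over the 175 factors with a GC value was -0.78.

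When the GC trend was removed within each library, 12 of the 115 called factors with a GC value kept their call, 60 lost it with the same sign and 43 changed sign. The trend was fitted to listed genes alone, which were selected by an unadjusted p under 0.05. How the trend runs in unlisted genes is unknown, and how many lost calls and sign changes rest on this selection was not tested. Removal shifted the median log2 fold change of all listed genes to 0.01, against -0.10 before. Of the 43, 5 passed in the other direction: CEBPB at 0.20, HMGA1 at 0.15, SOX13 at 0.13, ATF6B at 0.12 and CAPN15 at 0.10. Limma's adjusted p was computed over listed genes alone, so for kept and reversed calls it does not bound the share of false calls. Scaling the libraries to equal totals ended 17 of the 62 falls, with the sign kept: ATF6B, CEBPB, E2F4, ELF3, GATA3, HMGA1, IRX2, MAFG, MLLT1, MTA2, NFIC, SOX13, SOX15, STAT2, UBTF, YBX3 and ZBTB7B. It ended none of the 55 rises. The totals were sums over the listed genes alone, not over whole libraries. The median log2 fold change of all listed genes then stood at -0.02. The calls that held with the GC trend removed are described first.

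**Figure D3:**
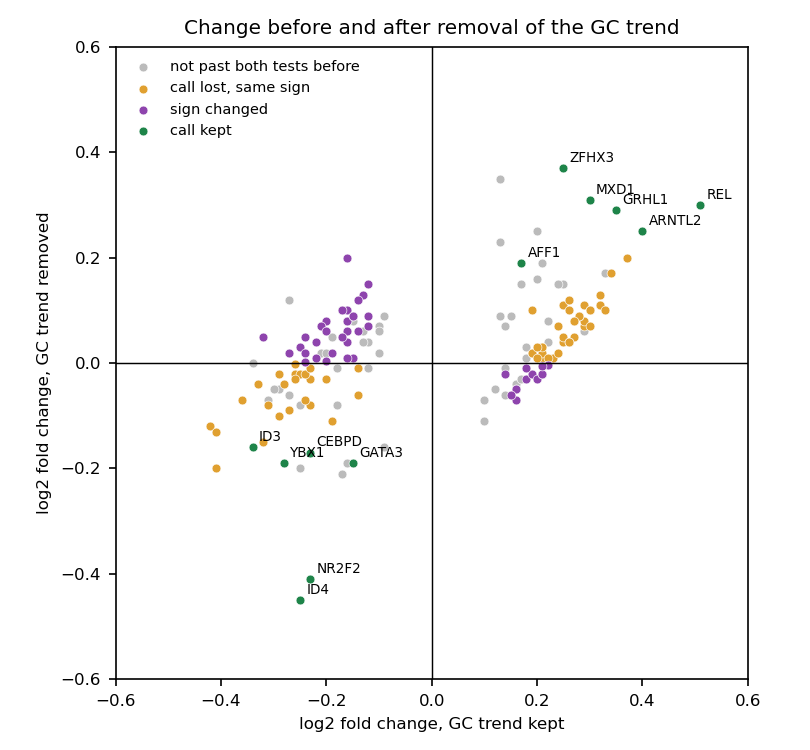
Log2 fold change (ACh minus Control) with the GC trend removed (vertical axis) against the same with the trend kept (horizontal axis), one point for each of 171 factors (those with a GC value and no library under 20 normalised counts). The 12 genes that kept their call are named. The 43 genes that changed sign lie in the upper left and lower right of the plot, between -0.07 (SUB1) and 0.20 (CEBPB) on the vertical axis.

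Of the 12, 6 rose. REL (ENSG00000162924, chromosome 2, 60881521 to 60931610), which encodes the c-Rel subunit of NF-kB, had 464, 466 and 544 normalised counts in ACh libraries and 309, 364 and 362 in Control libraries. Every ACh library lay above every Control library, and the log2 fold change was 0.51 ± 0.09 (SE; limma adjusted p = 6.64e-05), the largest rise among the 117 called factors. With the GC trend removed it was 0.30. ARNTL2 (ENSG00000029153, chromosome 12, 27332854 to 27425289) encodes a clock protein that pairs with CLOCK. It had 605, 623 and 600 in ACh and 451, 499 and 437 in Control, a log2 fold change of 0.40 ± 0.07, or 0.25 with the trend removed. The groups did not overlap, and the ACh libraries were the closer together.

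GRHL1 (ENSG00000134317, chromosome 2, 9951693 to 10002277), a grainyhead-like factor that activates desmosomal genes in epidermis, had 266, 281 and 299 normalised counts in ACh and 208, 222 and 234 in Control. Its log2 fold change was 0.35 ± 0.09 and 0.29 with the trend removed. MXD1 (ENSG00000059728, chromosome 2, 69897688 to 69942945) encodes a MAX partner that represses MYC targets and is induced in differentiating epithelia. It had 1028, 1069 and 1077 in ACh and 866, 873 and 832 in Control, with no overlap, and its log2 fold change was 0.30 ± 0.05, and 0.31 with the trend removed.

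ZFHX3 (ENSG00000140836, chromosome 16, 72782885 to 73891871), a large factor with several homeodomains and zinc fingers, had 815, 837 and 877 in ACh and 685, 687 and 749 in Control. Its log2 fold change was 0.25 ± 0.06, and larger, 0.37, with the trend removed. AFF1 (ENSG00000172493, chromosome 4, 86935002 to 87141054) encodes a scaffold of the super elongation complex. It had 1087, 1181 and 1157 in ACh and 994, 1011 and 1030 in Control. Its log2 fold change was 0.17 ± 0.05, and 0.19 with the trend removed. All 6 genes were higher in 3 of 3 ACh libraries than in any Control library. Such separation, in either direction, was found in 93.0% of all listed genes.

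The other 6 fell. ID3 (ENSG00000117318, chromosome 1, 23557918 to 23559794), an inhibitor of DNA binding that sequesters bHLH proteins, had 2451, 2247 and 2444 normalised counts in ACh and 2953, 3044 and 3025 in Control. The groups lay well apart, with a log2 fold change of -0.34 ± 0.04 (limma adjusted p = 1.63e-06), or -0.16 with the trend removed. ID4 (ENSG00000172201, chromosome 6, 19837386 to 19840684), of the same family, had 624, 671 and 704 in ACh and 818, 760 and 793 in Control. Its log2 fold change was -0.25 ± 0.06, and with the trend removed -0.45, the lowest such value among the 12.

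NR2F2 (ENSG00000185551, chromosome 15, 96325938 to 96340263), the orphan nuclear receptor COUP-TFII, had 7196, 7277 and 7341 in ACh and 8234, 8824 and 8583 in Control. The 3 ACh values lay within a narrow band below every Control value, and the log2 fold change was -0.23 ± 0.03, or -0.41 with the trend removed. ID4 and NR2F2 had the lowest GC content among the falls with a GC value, 42.6% and 45.3%, as measured on the mouse transcripts. GATA3 (ENSG00000107485, chromosome 10, 8045378 to 8075203), a zinc finger factor of epithelial and lymphoid differentiation, had 1773, 1602 and 1730 in ACh and 1885, 1928 and 1861 in Control. Its log2 fold change was -0.15 ± 0.04 and -0.19 with the trend removed, but -0.07, not past the threshold, when the libraries were scaled to equal totals.

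CEBPD (ENSG00000221869, chromosome 8, 47736909 to 47739086), a C/EBP factor of acute inflammatory responses, had 813, 735 and 766 in ACh and 924, 880 and 917 in Control, a log2 fold change of -0.23 ± 0.06, or -0.17 with the trend removed. YBX1 (ENSG00000065978, chromosome 1, 42682427 to 42702349) encodes a cold shock domain protein that packages messenger RNA. It had 25650, 26074 and 26135 in ACh and 30888, 32797 and 30882 in Control. With a log2 fold change of -0.28 ± 0.04, or -0.19 with the trend removed, all ACh values lay below Control. Per kilobase of exon, YBX1 had the highest level of all 179 factors, 13447 normalised counts in ACh and 16333 in Control. Its pseudogene YBX1P10 is also listed, so its value is uncertain by what reads the copies share.

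**Figure D4:**
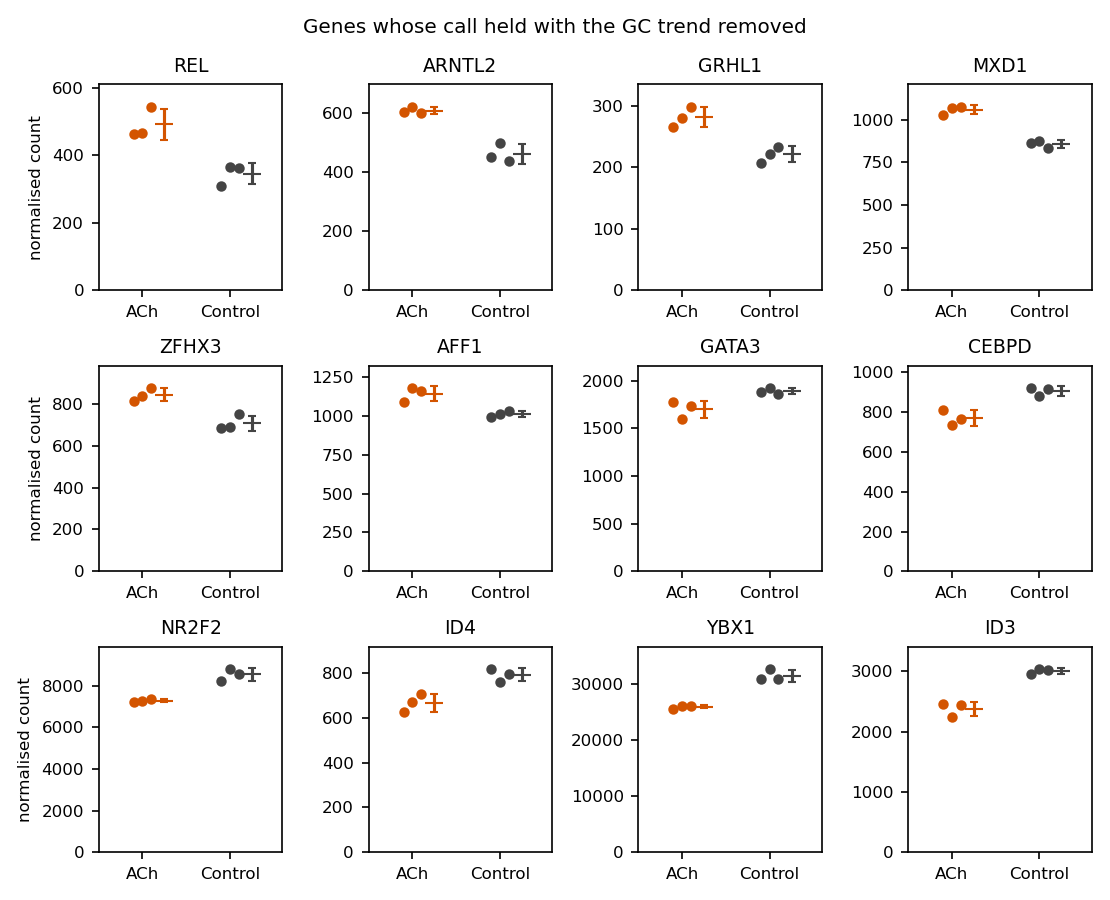
Normalised counts of the 12 genes whose call held with the GC trend removed, ACh on the left and Control on the right of each panel. Points are libraries and bars the mean ± SD (n = 3 each). In every panel the 3 ACh points lie all above or all below the 3 Control points, as in 93.0% of all listed genes. REL had 464 to 544 in ACh and 309 to 364 in Control.

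The bHLH genes had a median log2 fold change of -0.23, against -0.10 for all listed genes, and of -0.02, against 0.01, with the GC trend removed. They include the ID inhibitors. ID proteins lack a DNA-binding region and hold E proteins such as TCF3 in dimers that cannot bind DNA. ID1 had 5217, 4849 and 5080 normalised counts in ACh and 5835, 5596 and 5935 in Control, a log2 fold change of -0.20 ± 0.03. All 3 listed ID genes fell, at -0.20 to -0.34, and none changed sign with the GC trend removed, where ID1 stood at -0.03 and lost its call. TCF3, the E protein, fell as well, with 3250, 3178 and 3500 in ACh and 3730, 3738 and 3669 in Control, a log2 fold change of -0.17 that became 0.10 with the trend removed. ID genes are known targets of BMP signaling through SMAD proteins. SMAD6, an inhibitory SMAD of that pathway, fell at -0.24 and SMAD5, a BMP-responsive SMAD, rose at 0.20. With the trend removed they stood at 0.02 and 0.01. The TGF-beta and BMP list of 35 genes had 12 listed, of which 2 rose, 5 fell and 5 did not pass. Besides the factors, the receptor TGFBR1 rose at 0.23 and the ligand BMP4 fell at -0.19, and neither kept its call with the trend removed.

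Factors of the MAX network moved in opposite directions. MXD proteins pair with MAX and repress genes that MYC activates. MXD1 rose, as given above. MXD4 had 772, 656 and 804 normalised counts in ACh and 877, 908 and 904 in Control, a log2 fold change of -0.27 ± 0.07. MXD3 had 182, 163 and 170 in ACh and 246, 248 and 195 in Control, a log2 fold change of -0.41 ± 0.11. In neither gene did the groups overlap, and both genes kept the sign but not the call with the GC trend removed, at -0.09 and -0.20. MXD3 shares its locus with the listed gene PRELID1, so its reads could not be told apart. MGA, a MAX partner with a T-box, rose at 0.15 and turned to -0.06 with the trend removed. MLXIP, a glucose-responsive factor of the MLX branch, had a log2 fold change of -0.10 and did not pass. Of the 18 genes on the MYC, MAX and MLX list, 6 were listed, and the remaining one, TXNIP, a known target of MLXIP, rose at 0.43 ± 0.05 with 1854 ± 84.3 normalised counts in ACh and 1372 ± 84.6 in Control (SD, n = 3 each). TXNIP kept its call with the trend removed, at 0.34.

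SREBF1, the regulator of fatty acid and sterol synthesis, had a level per kilobase of exon of 2070 normalised counts in ACh and 2484 in Control. Per gene it had 17084, 16161 and 16618 in ACh and 19467, 20530 and 19844 in Control, with no overlap and a log2 fold change of -0.26 ± 0.04. NR1H2, the liver X receptor beta that activates SREBF1 transcription, had 1677, 1791 and 1784 in ACh and 2060, 2085 and 2138 in Control, a log2 fold change of -0.26 ± 0.04. Both lost their call with the GC trend removed, where SREBF1 stood at -0.03. SCAP, the SREBP escort protein, was the remaining listed gene of the 10 on the sterol list, with a log2 fold change of -0.12, and did not pass. USF3 rose, with 568, 551 and 580 in ACh and 487, 394 and 436 in Control (0.37 ± 0.08), and the related USF2 fell, with 2297, 2229 and 2472 in ACh and 2763, 2726 and 2716 in Control (-0.23 ± 0.04). Neither kept its call with the trend removed, at 0.20 and -0.01. The remaining bHLH falls were ATOH8 at -0.41, which lost its call at -0.13 with the trend removed, and HES4, a Notch-pathway repressor with no GC value, at -0.25. TWIST1, a factor of epithelial to mesenchymal transition and the only listed gene of the 13 on that list, had 146, 173 and 183 in ACh and 189, 222 and 212 in Control and did not pass, and neither did TFAP4 at -0.18.

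Of the 4 clock factors, 3 rose and 1 fell. CLOCK and ARNTL2 form the activating arm, NR1D2 (REV-ERB beta) represses it, and DBP is an output gene that the activators drive. CLOCK had 753, 715 and 753 normalised counts in ACh and 632, 585 and 669 in Control, a log2 fold change of 0.24 ± 0.06. NR1D2 had 1077, 1079 and 1224 in ACh and 1023, 958 and 947 in Control, a log2 fold change of 0.21 ± 0.06. DBP had 475, 460 and 468 in ACh and 574, 569 and 574 in Control, a log2 fold change of -0.29 ± 0.06. In all of them the groups were separate, as in 93.0% of all listed genes. With the GC trend removed, only ARNTL2 of the 4 kept its call. CLOCK stood at 0.02, DBP at -0.02 and NR1D2 at -0.0048, and DBP overlaps the listed gene SPHK2. Of the 26 genes on the clock list, 8 were listed, with 4 rises and 2 falls. Outside the factors, the kinase gene CSNK1D fell at -0.14 and changed sign with the trend removed. PER1, a repressor of the loop, had a log2 fold change of -0.21 and did not pass.

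**Figure D5:**
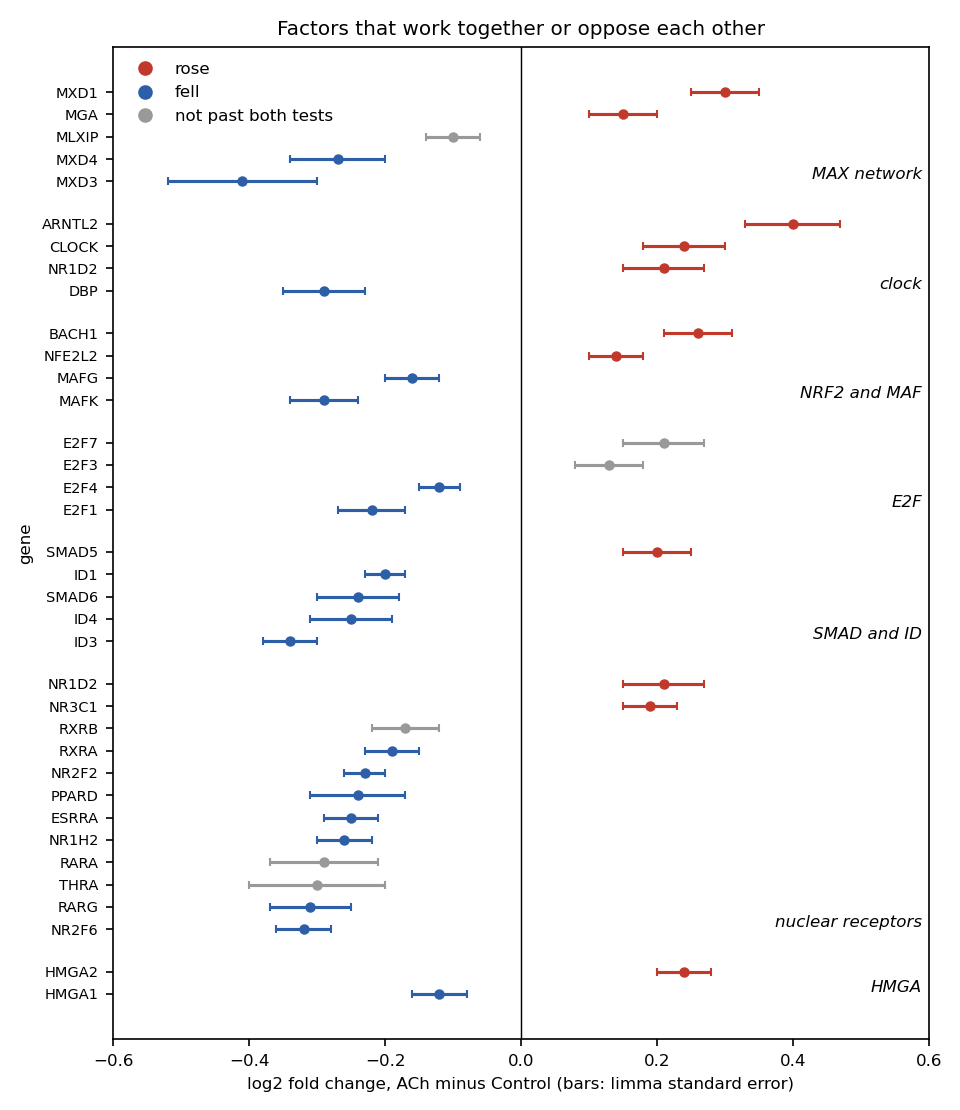
Log2 fold change (ACh minus Control) with limma standard error of factors that work together or oppose each other, grouped by network. Red points rose, blue points fell and grey points did not pass both tests. MXD1 at 0.30 lies opposite MXD3 at -0.41, and ARNTL2 at 0.40 opposite DBP at -0.29. With the GC trend removed, MGA, NR1D2, NFE2L2, MAFG, E2F4, E2F1, SMAD6, NR3C1, RXRA, PPARD, ESRRA, NR2F6 and HMGA1 changed sign among the called genes shown.

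Nuclear receptors were lower in ACh in 11 of 13 listed genes, of which 7 fell, and 4 of those 7 falls (NR2F6, RXRA, PPARD and ESRRA) changed sign with the GC trend removed. Both rises, NR3C1 and NR1D2, did so too. Over all listed genes, 2170 of 4195 were lower in ACh and 35.0% fell. The median log2 fold change of the 13 was -0.25, against -0.10 for all listed genes, and with the trend removed it was -0.00, against 0.01. Their median GC content was 59.2%, against 50.9% for all listed genes. NR2F6, an orphan receptor of the COUP-TF group, had 3561, 3535 and 3316 normalised counts in ACh and 4130, 4579 and 4261 in Control, a log2 fold change of -0.32 ± 0.04 that became 0.05. RXRA, the shared dimer partner of many receptors, had 6667, 6245 and 6885 in ACh and 7495, 7447 and 7661 in Control, a log2 fold change of -0.19 ± 0.04 that became 0.02. The retinoic acid receptor RARG had 892, 787 and 936 in ACh and 1119, 1051 and 1064 in Control, a log2 fold change of -0.31 ± 0.06 that became -0.08. The ACh values lay below every Control value in all of these, and the groups did not overlap in 93.0% of all listed genes.

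NR3C1, the glucocorticoid receptor, rose with 2453, 2465 and 2500 normalised counts in ACh and 2224, 2097 and 2180 in Control, a log2 fold change of 0.19 ± 0.04 that became -0.02 with the trend removed. PPARD, a fatty acid sensor, fell at -0.24 and ESRRA, a regulator of mitochondrial genes, at -0.25. ESRRA overlaps the listed gene TRMT112. RARA at -0.29, THRA (thyroid hormone receptor alpha) at -0.30 and RXRB at -0.17 did not pass. NR5A1, a steroidogenic factor, was near 0, with 1.07, 0 and 0 in ACh and 3.95, 8.12 and 2.3 in Control, and did not pass. Among the 18 genes on the list of nuclear receptor coregulators, TBL1XR1, an exchange factor of corepressor complexes, rose at 0.38 ± 0.05 and kept its call at 0.17. NRIP1 rose at 0.29 without keeping it, and NCOA4 rose at 0.16 and changed sign.

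Among leucine zipper genes, NRF2 partners split. NFE2L2 (NRF2) activates antioxidant genes as a dimer with small MAF proteins, BACH1 represses the same sites, and KEAP1 marks NRF2 for degradation. NFE2L2 had 2118, 2056 and 2043 normalised counts in ACh and 1823, 1877 and 1953 in Control, a log2 fold change of 0.14 ± 0.04. BACH1 had 992, 974 and 938 in ACh and 772, 821 and 837 in Control, a log2 fold change of 0.26 ± 0.05. MAFK had 991, 1017 and 1027 in ACh and 1263, 1228 and 1215 in Control, a log2 fold change of -0.29 ± 0.05. The small MAF genes thus fell, with MAFG at -0.16, while the NRF2 and BACH1 genes rose, although NFE2L2 and MAFG changed sign with the GC trend removed, at -0.02 and 0.01. KEAP1 fell at -0.20 and then stood at 0.03. None of these 5 genes, all that were listed of 12 on the list, kept its call. NFE2L2, MAFG and MAFK each overlap another listed gene.

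The cAMP-responsive factor CREB1 had 648, 701 and 681 normalised counts in ACh and 582, 567 and 603 in Control, a log2 fold change of 0.21 ± 0.06 that became -0.02 with the trend removed. Its relative ATF7 rose at 0.26 and then stood at 0.12, without its call. On the CREB list, 6 of 14 genes were listed, with 4 rises and no fall. Over all listed genes, 28.8% rose and 35.0% fell. The median log2 fold change of the 6 was 0.20, and 0.02 with the trend removed. The phosphodiesterase gene PDE4D rose at 0.24 and kept its call at 0.21, and PRKAR1A, a regulatory subunit of protein kinase A, rose at 0.19 without keeping it. ATF6B, an endoplasmic reticulum stress sensor, fell with 2536, 2455 and 2500 in ACh and 2724, 2734 and 2783 in Control, at -0.14 ± 0.03, but passed in the other direction at 0.12 with the trend removed. ATF5 at -0.17 and JDP2 at -0.27 did not pass. Of 22 genes on the endoplasmic reticulum stress list, 6 were listed, with 2 rises and 3 falls. TRIB3, a target of ATF4, fell at -0.21 and changed sign with the trend removed, at 0.02. PPP1R15B, a phosphatase subunit that reverses the stress arrest of translation, rose at 0.15 and lost its call at 0.08. HSP90B1 rose at 0.09 and then passed in the other direction, at -0.10. Of the 5 called genes on the list, 3 passed in the other direction with the trend removed.

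CEBPA had 446, 501 and 409 normalised counts in ACh and 513, 632 and 600 in Control, a log2 fold change of -0.36 ± 0.08. It is a factor of growth arrest and differentiation in many epithelia. CEBPB had 1484, 1510 and 1457 in ACh and 1642, 1736 and 1602 in Control, a log2 fold change of -0.16 ± 0.04. With the trend removed CEBPA stood at -0.07 without its call and CEBPB at 0.20, past the threshold in the other direction, so CEBPD was the only C/EBP gene to keep its call. CEBPZ, annotated under Others, had a log2 fold change of 0.16 and did not pass.

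Besides REL, the Rel-homology (RHD) genes were NFAT5 and NFATC3. NFAT5, the osmotic stress factor, had 1340, 1386 and 1474 normalised counts in ACh and 1137, 1107 and 1155 in Control, a rise of 0.30 ± 0.05 that lost its call at 0.10 with the GC trend removed. NFATC3, a calcium and calcineurin-dependent factor, had 616, 617 and 614 in ACh and 574, 492 and 562 in Control and did not pass. Of 17 genes on the NF-kB list, 5 were listed. Besides REL, the kinase gene MAP3K7 rose at 0.21, and the inhibitors NFKBIB and NFKBIA fell at -0.26 and -0.16, as did the adaptor TRAF2 at -0.16. Only REL kept its call with the trend removed, and TRAF2 changed sign. The calcium and actin list had 7 of 23 genes listed, with 4 rises and 2 falls. They include MEF2A, a MADS-box factor of muscle and neuronal genes that rose at 0.22 and then stood at 0.01, and MRTFB, a coactivator of SRF, that rose at 0.19 and kept its call at 0.16.

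Interferon and cytokine factors were few. STAT2 had 2129, 2215 and 2418 normalised counts in ACh and 2355, 2512 and 2594 in Control. The groups overlapped, and the fall of -0.14 ± 0.05 lost its call without ACh replicate 1 (adjusted p = 0.0549, limma), and also with the GC trend removed, at -0.06. IRF3, a factor of innate immunity, fell with 1647, 1758 and 1497 in ACh and 1894, 1945 and 1904 in Control, at -0.23 ± 0.05, but lost its call at -0.03 with the trend removed. It overlaps the listed gene BCL2L12. IRF7, an interferon-induced factor, was low, with 8.58, 27.2 and 26.2 in ACh and 4.94, 11.2 and 11.5 in Control, and did not pass. The SUMO ligase PIAS2 rose at 0.30, PIAS4 fell at -0.20 and PIAS3 stood at -0.13 without passing. With the trend removed PIAS2 lost its call at 0.10 and PIAS4 changed sign. The JAK, STAT and IRF list had 11 of 30 genes listed, with 4 rises and 4 falls, among them the receptor subunits IL6ST at 0.34 and IFNAR1 at 0.24, which kept their calls.

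E2F factors control entry into DNA replication and are bound by the RB family of pocket proteins. E2F1, an activator, had 1126, 1159 and 1213 normalised counts in ACh and 1368, 1294 and 1417 in Control, a log2 fold change of -0.22 ± 0.05. E2F4, which acts mainly as a repressor, had 2711, 2755 and 2669 in ACh and 2936, 3039 and 2878 in Control, a log2 fold change of -0.12 ± 0.03. Both fell, and both changed sign with the GC trend removed, at 0.01 and 0.07. E2F3 at 0.13 and the atypical repressor E2F7 at 0.21 did not pass. MYBL2, a partner of E2F and FOXM1 programs in the cell cycle, fell with 3682, 3704 and 3671 in ACh and 4084, 4240 and 3998 in Control, at -0.16 ± 0.03, and then stood at 0.04. FOXM1 was at -0.10 and its groups did not overlap, but it did not pass. Of the 26 genes on the E2F and pocket protein list, 11 were listed, with 3 rises and 4 falls. The pocket protein genes RB1 and RBL1 rose at 0.23 and 0.22 and lost their calls with the trend removed, at 0.02 and 0.01. The kinase gene CDK6 rose at 0.34 and kept its call at 0.16, and CDK4 fell at -0.13 and changed sign, at 0.0018.

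Among HMG-box genes the rises were BBX at 0.21, the Wnt factor TCF7L2 at 0.25, the mitochondrial DNA-packaging factor TFAM at 0.21, the cell cycle repressor HBP1 at 0.28, WDHD1 at 0.19 and PMS1 at 0.23. With the GC trend removed they kept the sign and lost the call. TFAM had 1852, 1900 and 1777 normalised counts in ACh and 1606, 1636 and 1542 in Control. The falls were SOX12 at -0.28, HMG20B at -0.24, the MAPK-regulated repressor CIC at -0.20, SOX15 at -0.16, the ribosomal RNA gene factor UBTF at -0.15 and SOX13 at -0.13, of which SOX12 alone kept its sign with the trend removed. SOX12 had 983, 1014 and 999 in ACh and 1216, 1223 and 1205 in Control, with little spread in either group. SOX9, a factor of progenitor cells, had 1168, 1392 and 1213 in ACh and 1136, 1204 and 1065 in Control, where the groups overlapped, and did not pass. SOX18, an endothelial factor, was low, with 41.8, 19.2 and 31.4 in ACh and 43.4, 51.7 and 65.3 in Control.

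The architectural proteins HMGA1 and HMGA2 bend AT-rich DNA and are abundant in embryonic and tumor cells. HMGA2 had 6666, 7088 and 6416 normalised counts in ACh and 5749, 5845 and 5438 in Control, a rise of 0.24 ± 0.04. HMGA1 had 12802, 13147 and 12520 in ACh and 13642, 14894 and 13406 in Control, a fall of -0.12 ± 0.04. The opposite signs did not hold with the GC trend removed, where HMGA2 stood at 0.07 without its call and HMGA1 passed at 0.15. Per kilobase, HMGA1 had 5511 normalised counts in ACh and 6008 in Control, the second highest level among the factors.

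Corepressor and chromatin genes moved in both directions. The MIER corepressors MIER1 and MIER3 rose at 0.21 and 0.26, and ASH1L, a histone methyltransferase, and BCLAF1 rose at 0.21 and 0.20. With the GC trend removed, MIER1 (-0.02) and BCLAF1 (-0.03) changed sign, and MIER3 (0.04) and ASH1L (0.03) lost their calls. BAZ2B, a bromodomain protein, had 592, 658 and 631 normalised counts in ACh and 471, 508 and 508 in Control, a rise of 0.34 ± 0.07, and stood at 0.17 without its call with the trend removed. MBD3, a subunit of the NuRD deacetylase complex, fell with 1952, 1914 and 1999 in ACh and 2400, 2371 and 2298 in Control, at -0.27 ± 0.04, and then stood at 0.02. MTA2, of the same complex, fell at -0.14 and then stood at -0.01 without its call, and MTA3 was at 0.13 and did not pass. LCOR, a ligand-dependent corepressor, rose at 0.25 and AFF4, a super elongation complex scaffold like AFF1, at 0.27. Neither kept its call.

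Of the 8 ETS genes, which bind a GGA core, 3 rose and 2 fell. GABPA, the DNA-binding subunit of GABP, had 937, 982 and 880 normalised counts in ACh and 740, 783 and 772 in Control, a rise of 0.29 ± 0.06. Its partner subunit GABPB1, annotated under Others, had 336, 401 and 354 in ACh and 288, 310 and 291 in Control, a rise of 0.29 ± 0.09. ELF1 rose at 0.21 and ELK4, an SRF partner, at 0.19. With the GC trend removed these genes kept the sign and lost the call, at 0.03 to 0.11. ERF, an ETS repressor, fell with 1774, 1720 and 1925 in ACh and 2070, 2292 and 2122 in Control, at -0.26 ± 0.05, and stood at -0.02 with the trend removed. ELF3, an epithelial differentiation factor, fell at -0.14 and then stood at 0.06. ETS1, ETV6 and ELK3 did not pass.

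Epithelial and squamous factors were lower in ACh in 6 of 8 listed genes, and 2 were higher. Their median log2 fold change was -0.15, and 0.03 with the GC trend removed. For all listed genes, 2170 of 4195 were lower, and these medians were -0.10 and 0.01. Of 24 genes on that list, 8 were listed, with 1 rise (GRHL1) and 3 falls (ELF3, GATA3 and SOX15), of which ELF3 and SOX15 changed sign with the GC trend removed. TFAP2C (AP-2 gamma) had 1526, 1398 and 1482 normalised counts in ACh and 1651, 1541 and 1600 in Control, without overlap, at -0.12, and did not pass. PITX1 had 226, 216 and 194 in ACh and 235, 331 and 248 in Control and did not pass either. In the homeobox family, ZHX1 rose at 0.32, SIX4 at 0.28 and CERS6 at 0.18, next to ZFHX3. PRRX2, a factor of mesenchymal development, fell with 238, 240 and 193 in ACh and 285, 292 and 320 in Control, at -0.42 ± 0.10, the largest fall among the called factors. IRX3 fell at -0.33 and IRX2 at -0.20. Without the GC trend CERS6 and IRX2 changed sign, and of the homeobox genes ZFHX3 alone kept its call.

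Signal-dependent factors of the Hippo, Wnt and Notch pathways were few among the listed genes. TEAD1, the DNA-binding partner of YAP1, had 1677, 1676 and 1647 normalised counts in ACh and 1535, 1494 and 1589 in Control, without overlap, at 0.12, and did not pass. The other 6 listed genes of the 15 on the Hippo list all rose: MOB1B at 0.36, LATS1 at 0.29, WWTR1 at 0.20, STK3 at 0.20, MOB1A at 0.19 and YAP1 at 0.13, but MOB1A and STK3 changed sign with the GC trend removed. YAP1 alone of them kept its call, at 0.13. Over all listed genes 28.8% rose. The median GC content of the 7 Hippo genes was 43.4%, and 82.2% of the factors with GC below 45% rose. With the trend removed the median log2 fold change of the 7 was 0.01, against 0.20 before. The list holds kinases that restrain YAP1 as well as YAP1 and its relative WWTR1. RBPJ, the DNA-binding factor of Notch signaling, had 1058, 1225 and 1124 in ACh and 981, 859 and 884 in Control, a rise of 0.32 ± 0.06 that stood at 0.13 without its call. Of 22 Notch genes 6 were listed, with 2 rises and 2 falls. The receptor NOTCH1 fell at -0.20 and changed sign. Of 27 Wnt genes 13 were listed, with 5 rises and 6 falls, and the falls, such as DVL1 at -0.23 and LRP5 at -0.21, changed sign with the trend removed. CTNNB1 (beta-catenin), the coactivator of TCF7L2, had 6407 ± 219 normalised counts in ACh and 6013 ± 137 in Control (SD, n = 3 each) and did not pass.

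HIF1A, the oxygen-regulated subunit of hypoxia-inducible factor, had 3607, 3520 and 3516 normalised counts in ACh and 3356, 3271 and 3302 in Control. The groups did not overlap, but at 0.10 it did not pass, where the authors' deposited table gives an adjusted p of 0.051. With the GC trend removed it turned to -0.11 (limma adjusted p = 0.0132). Of the 10 oxygen-sensing genes 4 were listed. The hydroxylase gene EGLN3, a known HIF target, rose at 0.52 ± 0.09, with 377 ± 29.2 in ACh and 262 ± 17.2 in Control (SD, n = 3 each), and kept its call at 0.57. EGLN1 at 0.15 and EGLN2 at -0.61 did not pass. With the trend removed EGLN1 stood at 0.34 (limma adjusted p = 1.24e-05) and EGLN2 at -0.33 (limma adjusted p = 0.15). FOXO6, the only FOXO gene listed, had 246, 248 and 239 in ACh and 289, 294 and 301 in Control and did not pass. Of 17 FOXO and AKT genes 9 were listed, with 5 rises and 1 fall (AKT1 at -0.19, which changed sign with the trend removed), and SGK1, a kinase induced by glucocorticoids and growth factors, rose at 0.26 and kept its call at 0.17. Over all listed genes 28.8% rose. The median log2 fold change of the 9 was 0.19, and 0.06 with the trend removed. The lysosome list had 1 of 11 genes listed, FLCN, which fell at -0.19 and then stood at -0.02 without its call.

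ZBTB genes, most of them transcriptional repressors with a BTB domain, rose for ZBTB6, ZBTB11, ZBTB26, ZBTB37 and ZBTB41, at 0.26 to 0.33, and fell for ZBTB7A at -0.24 and ZBTB7B at -0.15. ZBTB41 had 465, 524 and 479 normalised counts in ACh and 388, 387 and 393 in Control. ZBTB7A had 1576, 1731 and 1786 in ACh and 1982, 1990 and 2018 in Control. The rises kept their sign and lost their calls with the GC trend removed, at 0.04 to 0.11, ZBTB7A stood at -0.02 and ZBTB7B turned to 0.09. BCL6, a germinal-center repressor, had a log2 fold change of -0.25 and did not pass. In the THAP family, THAP12 rose at 0.20 and lost its call at 0.03 with the trend removed, and THAP7 fell at -0.22 and changed sign.

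Among the rest, SLC2A4RG, named for the glucose transporter gene it regulates, fell with 1836, 1792 and 1936 normalised counts in ACh and 2376, 2238 and 2318 in Control, at -0.32 ± 0.04. It had no GC value. HSF1, the heat shock factor, fell with 2591, 2586 and 2796 in ACh and 3042, 3142 and 3272 in Control, at -0.25 ± 0.04, and lost its call at -0.02 with the trend removed. BLZF1 rose at 0.27 and stood at 0.05 without its call. FOXN2, a forkhead factor, rose at 0.29, the MYB-type cell cycle regulator DMTF1 at 0.25, the histone deubiquitinase MYSM1 at 0.22, CBFB, the partner of RUNX factors, at 0.18 and PURB at 0.16. With the trend removed MYSM1, CBFB and PURB changed sign, and FOXN2 and DMTF1 lost their calls. LZTR1, an adaptor in the degradation of RAS proteins, fell at -0.32, RFXANK, an activator of MHC class II genes, at -0.24, ARID3A at -0.23, PREB at -0.19, CIZ1 at -0.17, CAPN15 at -0.16, MLLT1 at -0.15 and the cold shock factor YBX3 at -0.12. Of these, CIZ1, CAPN15, MLLT1 and YBX3 changed sign, and LZTR1, RFXANK, ARID3A and PREB lost their calls. NFIC fell at -0.16 and SUB1 rose at 0.16, each with overlapping groups. Both changed sign with the trend removed, and each lost its call when 1 of several libraries was left out. Without ACh replicate 2, NFIC stood at -0.11 and SUB1 at 0.09, without Control replicate 2, NFIC stood at -0.13, and without Control replicate 3, SUB1 stood at 0.10.

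POU5F2 had 1.07, 2.26 and 8.38 normalised counts in ACh and is listed at 0 in all Control libraries, so no fold is given. TSC22D1, a leucine zipper protein known as a TGF-beta-stimulated gene, had 2013, 2047 and 2032 in ACh and 1799, 1884 and 1903 in Control. It did not pass, at 0.13 ± 0.04 and an adjusted p-value of 0.0551 from the authors' deposited table, but with the GC trend removed its log2 fold change was 0.35, second only to ZFHX3 among factors with at least 20 normalised counts in every library. The other factors that did not pass, of the forkhead, RFX, ZBTB, MYB, SAND, PBX and further families, lay between -0.25 (DEAF1) and 0.33 (TBX18). In all, 20 factors overlap another listed gene, among them ESRRA, HSF1, IRF3, NFE2L2, MAFK, MAFG, DBP, MXD3 and SREBF1. No source says that reads were counted by strand, so these values are uncertain by the reads of the neighbor.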

How the data were processed

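Total RNA of KYSE30 cells, 3 ACh and 3 Control libraries, was sequenced. Bowtie 0.12.2 appears in the submitters' processing notes beside the mouse builds mm10 and mm8, and mouse is the labelled organism, but the table lists human genes. Neither a human build nor a counting program is named in the sources used here, and coordinates are copied from the file. The deposited values are a signal, read counts that the authors normalised per library. The log2 fold changes, p-values and adjusted p-values named as the authors' were deposited with them, per the file headers. All 4195 listed genes have a p-value under 0.05, so the table is selected. Depth and strand are unknown.

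Values were tested as log2(value + 1) in R 4.3.3 by limma-trend (limma 3.58.1), where group was the sole term, with no filter, and p-values were adjusted by Benjamini-Hochberg over all 4195 genes. Since these genes were selected by p-value, limma's adjusted p does not bound the share of false calls. The added 1 understates changes of low genes. Per-kilobase levels divide by exonic length. The script was tested on simulated data. The planned count test was not run, since whole reads could not be recovered. Factors, lists and tests were chosen with earlier results of these data known. The naming rule took, among called genes, the 10 largest rises and falls at or above the factors' median level, up to 3 per direction of each family with 5 or more genes, 1 per direction of smaller families, up to 3 per direction of each list, and factors that a pathway turns on, such as HIF1A. Genes with a library under 20 are given as values. The 12 genes whose call held with the GC trend removed, and the further factors that complete a family, were named after their values were seen. A few genes are counted but not reported here by name.

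GC content came from the mouse gene of the same symbol in GENCODE M21, on its longest protein-coding transcript. A local regression (span 0.3), fitted to the 3676 listed genes with a GC value, removed its trend in each library. A call held when the sign was kept and limma's adjusted p stayed under 0.05. That adjustment ran over the same 3676 genes, which were selected by p-value, so it does not bound the share of false calls. Alternatives were equal totals over the listed genes, a lower-quartile filter, a pseudocount of 0.1, a 1.2-fold minimum, either test alone, a replicate block and leaving out each library. Tables and figures were made with pandas 2.3.3, SciPy 1.17.1, NumPy 2.4.6 and Matplotlib 3.10.9 in Python 3.11.15.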

Additional observations from a re-analysis of the deposited data

How the results depend on the processing

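Of the settings tried, removal of the GC trend changed the calls most. It left 11 factors called higher and 6 lower, against 55 and 60 among factors with a GC value. This count took the authors' adjusted p whatever its direction, so 5 of the 11 were falls that had changed sign. The calls that kept their direction were 6 rises and 6 falls. The share of higher calls, 64.7% against 47% in the main test, includes the 5 reversed falls. Among the factors that changed sign, the log2 fold change then stood at SUB1 -0.07, MGA -0.06, PURB -0.05, BCLAF1 and CBFB -0.03, CREB1, MIER1, NFE2L2 and NR3C1 -0.02, CERS6 -0.01, NR1D2 -0.0048 and MYSM1 -0.0043 among the rises, and PPARD 0.0011, IRX2 0.0041, E2F1, MAFG and UBTF 0.01, MBD3, RXRA and SMAD6 0.02, ESRRA 0.03, MYBL2 and THAP7 0.04, CIZ1, HMG20B and NR2F6 0.05, ELF3, NFIC and PIAS4 0.06, E2F4 0.07, CIC and SOX15 0.08, MLLT1, YBX3 and ZBTB7B 0.09, CAPN15 and TCF3 0.10, ATF6B 0.12, SOX13 0.13, HMGA1 0.15 and CEBPB 0.20 among the falls. Of the factors that had not passed, the sign changed, among others, for HIF1A -0.11, FOXJ3 -0.07, POU2F1 -0.06, TEAD1 -0.05, CEBPZ -0.04, RFX7 -0.03, MYBL1 -0.02, CDC5L -0.01, ZBTB44 -0.0043, MLXIP and TSC22D4 0.02, PIAS3 and SMARCC2 0.04, ZBTB17 0.05, FOXC1, RFX1 and ZFP36L2 0.06, FOXM1 0.07, THAP11 and ZMIZ2 0.08, PBX2 0.09, ATF5 and RXRB 0.10 and FOXO6 0.12. Limma alone called 85 higher and 94 lower, and limma alone after removal of the GC trend, an alternative chosen after seeing the data, called 17 higher and 11 lower. With a minimum of 1.2-fold, 22 were called higher and 17 lower. Scaling to equal totals gave 55 higher and 45 lower, and a lower-quartile filter, which keeps 131 factors, 39 higher and 55 lower. In every setting but limma alone, the authors' adjusted p was kept as deposited and only limma was refitted. The genes were also selected by p-value on these same libraries. Counts that stay nearly constant across the settings below were thus largely set in advance, and do not show how firm the calls are. A pseudocount of 0.1 changed no call. Leaving out 1 library gave 54 to 55 higher and 61 to 62 lower, and ended a call for NFIC, STAT2 or SUB1 in 4 of 6 runs. With a replicate block the calls were again 55 higher and 62 lower. Same-numbered libraries correlated by 0.082, 0.056 and 0.047 in their deviations from the group means, each the highest for its number but under 0.1, so the numbers were not taken to pair the samples. The planned count test on recovered reads was not run. The depth is unknown, so no counting interval is given, and the 4 factors with a library under 20 normalised counts rest on few reads.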
